A study of Mus musculus with 12 samples.

Results

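The mitochondrial carriers of the SLC25 family were examined in the left ventricle of infarcted mouse hearts with and without an Irx3 vector. The members were the protein-coding genes whose symbol starts with Slc25a and a number, 47 of the 56748 genes counted. Of these, 40 passed the filter on low counts and were tested, and 7 were not. All 12 animals were wild-type C57BL/6J mice that received AAV9, an adeno-associated virus that transduces heart muscle well, through the tail vein. In 1 group the AAV9-Irx3 vector was followed by myocardial infarction (MI), made by tying off the left anterior descending coronary artery. In another the AAV9 control vector was followed by the same infarction, and in the last the AAV9 control vector was followed by sham surgery. Each group had 4 mice, and the ventricle was taken at day 14 after surgery. No sham group with the Irx3 vector was analysed, so the vector was compared in infarcted hearts only. For the vector's promoter and dose and for the sex and age of the mice, the sources used here give nothing.

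SLC25 carriers are small proteins of the inner mitochondrial membrane that exchange metabolites between the cytosol and the matrix. They share a fold built from similar repeats around a central binding site that opens to each side in turn. In heart muscle the best known are the ADP/ATP carriers, which export newly made ATP, the phosphate carrier, the carriers of the malate-aspartate shuttle, which brings reducing equivalents into the matrix, and the carnitine-acylcarnitine carrier, which brings in fatty acids for oxidation. Other members move citrate, amino acids, iron, folate, glutathione, nucleotides and cofactors.

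The libraries held 13352604 to 19236721 counts, and no pair of libraries was a duplicate. Irx3 averaged 393 ± 111 CPM in Irx3 vector MI hearts, 23.1 ± 6.89 CPM in control vector MI hearts and 24.5 ± 2.65 CPM in sham hearts (SD, n = 4 each). Mitochondrially encoded transcripts took 13.7% ± 3.7 of the total in Irx3 vector MI hearts, 2.72% ± 2.03 in control vector MI hearts and 6.15% ± 1.72 in sham hearts (SD, n = 4 each). The labels give cardiomyocytes as the cell type, but markers of other cells were plentiful. The 8 fibroblast markers summed to 3765–25209 CPM in Irx3 vector MI hearts, 13036–36195 CPM in control vector MI hearts and 634–816 CPM in sham hearts. The 12 cardiomyocyte markers summed to 29622–55895 CPM in Irx3 vector MI hearts, 21624–64441 CPM in control vector MI hearts and 106550–125480 CPM in sham hearts, so the tissue is described as whole ventricle. In bulk tissue fewer cells of a type and less RNA per cell cannot be told apart.

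Levels here are normalised read counts (CPM) on library sizes scaled by TMM factors, and levels of different genes are compared per kilobase of merged exon length. On that scale Slc25a4, the ADP/ATP carrier of heart and skeletal muscle (ANT1), led the family in every group. It stood at 971 ± 397 CPM per kb in Irx3 vector MI hearts, 1089 ± 434 in control vector MI hearts and 2777 ± 239 in sham hearts (SD, n = 4 each). Slc25a4 alone made up 57.1% ± 4.16 of the summed carrier level per length in Irx3 vector MI hearts, 56.3% ± 7.12 in control vector MI hearts and 65.7% ± 1.06 in sham hearts (SD, n = 4 each). Behind it in sham hearts came Slc25a11, the oxoglutarate-malate carrier, at 377 ± 26.4 CPM per kb. Slc25a3, the phosphate carrier that feeds ATP synthase, followed at 233 ± 7.95, Slc25a34, a carrier of unsettled substrate, at 199 ± 14.0, and Slc25a5, the ADP/ATP carrier of dividing and non-muscle cells (ANT2), at 183 ± 11.1 CPM per kb. After infarction Slc25a5 stood second, at 141 ± 34.3 CPM per kb in Irx3 vector MI hearts and 172 ± 14.5 in control vector MI hearts. Its neighbours in that order, Slc25a3 with the Irx3 vector at 136 ± 48.5 and Slc25a11 with the control vector at 159 ± 52.2, lay within that spread. Slc25a4 and Slc25a5 are similar in sequence, and Slc25a5 has processed copies in the genome. The sources used here do not say how reads that match several places were counted, so the split between the pair is uncertain to that extent.

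**Figure D1:**
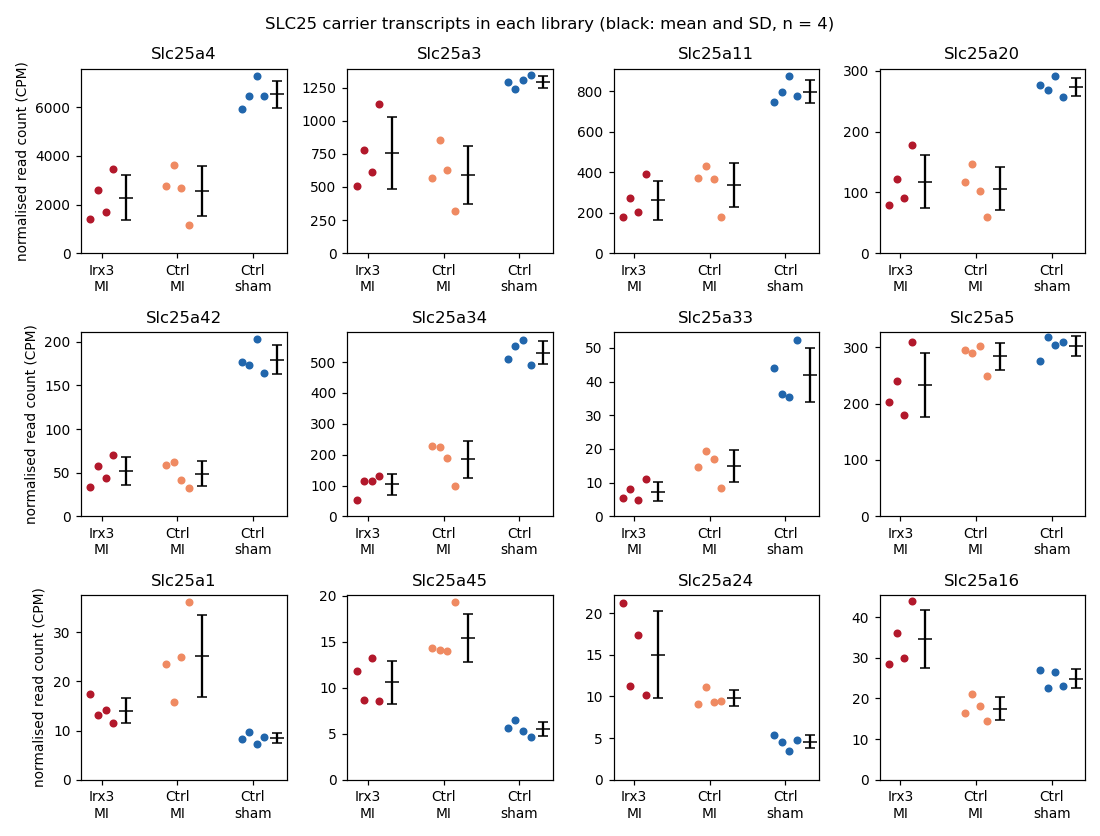
Normalised read count (CPM, linear axes from 0) of 12 carriers in each library, with the mean and SD (n = 4) in black beside the points, for Irx3 vector MI, control vector MI and sham hearts. The 4 sham libraries of Slc25a42, at 164 to 203 CPM, lie above all 8 libraries of infarcted hearts, and those of Slc25a1, at 7.24 to 9.61 CPM, lie below all 8.

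The 7 untested members were near or at the limit of detection. Slc25a48 and Slc25a54 had 0 counts in all 12 libraries, which allows up to 3 counts in a library, or 0.144 to 0.228 CPM, by counting error only. Slc25a41 had 1 count in 1 control vector MI library. Slc25a2, an ornithine carrier, and Slc25a21, the oxodicarboxylate carrier, had at most 6 and 3 counts in any library. Slc25a18, a glutamate carrier, reached at most 18 counts, and Slc25a31, the ADP/ATP carrier of male germ cells, at most 13.

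Promoters of carriers that dominate or change in these data are printed to give the sequence around their start sites. RefSeq promoters on build GRCm38.p6, each 300 bases from 250 before to 50 after the start, were matched by symbol for 36 of the 47 members, with 46 start sites. The Slc25a4 promoter (chr8:46211013-46211312, minus strand) holds 2 CCAAT boxes, the site of the factor NF-Y. That of Slc25a3 (chr10:91123918-91124217, minus strand) holds a palindrome of nuclear respiratory factor 1, searched as GCGC, any base, then TGCGC. The promoter of Slc25a34 (chr4:141623785-141624084, minus strand) holds the nuclear receptor hexamer AGGTCA on the opposite strand, and that of Slc25a1 (chr16:17928170-17928469, minus strand) the E-box CACGTG. Sequences run 5′ to 3′ along the gene, and capitals mark these matches, with other searched sites left unmarked. On either strand, all the promoters printed also hold the GC box GGGCGG, and those of Slc25a34 and Slc25a1 hold CCAAT.
Slc25a4: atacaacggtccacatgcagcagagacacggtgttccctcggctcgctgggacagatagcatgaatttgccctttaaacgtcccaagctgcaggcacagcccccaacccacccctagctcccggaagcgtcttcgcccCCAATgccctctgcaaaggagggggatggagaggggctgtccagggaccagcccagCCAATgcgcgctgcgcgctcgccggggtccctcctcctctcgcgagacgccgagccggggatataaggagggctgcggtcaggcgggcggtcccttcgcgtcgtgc
Slc25a3: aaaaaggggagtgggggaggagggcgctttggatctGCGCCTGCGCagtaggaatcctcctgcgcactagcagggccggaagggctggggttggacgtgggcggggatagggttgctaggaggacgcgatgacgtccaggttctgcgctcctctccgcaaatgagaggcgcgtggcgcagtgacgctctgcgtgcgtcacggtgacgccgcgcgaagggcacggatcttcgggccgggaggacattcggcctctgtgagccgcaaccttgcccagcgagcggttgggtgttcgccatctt
Slc25a34: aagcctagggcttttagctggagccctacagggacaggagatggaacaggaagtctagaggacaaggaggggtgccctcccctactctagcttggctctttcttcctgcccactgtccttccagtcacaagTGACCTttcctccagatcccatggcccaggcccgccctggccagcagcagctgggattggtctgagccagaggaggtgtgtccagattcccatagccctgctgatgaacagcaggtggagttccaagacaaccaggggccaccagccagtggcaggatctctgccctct
Slc25a1: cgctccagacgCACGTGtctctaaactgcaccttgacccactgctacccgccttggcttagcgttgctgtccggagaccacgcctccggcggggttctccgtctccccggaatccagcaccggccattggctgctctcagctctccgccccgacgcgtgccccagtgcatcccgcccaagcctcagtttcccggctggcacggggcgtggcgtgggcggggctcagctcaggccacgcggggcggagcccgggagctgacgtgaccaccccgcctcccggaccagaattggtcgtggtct
Searched on both strands, CCAAT was found in 47.8% of the 46 carrier promoters, against 37.4% of all 32851 promoters of that length. The GC box GGGCGG was found in 82.6% of carrier promoters, against 35.7% of all, and CACGTG in 17.4%, against 7.15% of all. AGGTCA was found in 8.70% of carrier promoters, against 16.3% of all, and the palindrome in 4.35%, against 4.60% of all. The longer element TNAAGGTCA of the estrogen-related receptors, which contains the hexamer, was in 0 of the 46, against 1.28% of all. Carrier promoters had a median GC content of 59.3%, against 52.7% for all promoters. A match describes these letters only.

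After infarction with the control vector the carrier family was lower than in sham hearts. In edgeR's quasi-likelihood test, with a gene called at an adjusted p under 0.05, 18 of the 40 tested carriers were lower (45%, against 22.4% of all 15742 genes tested) and 5 were higher (12.5%, against 26.3% of all). Libraries did not overlap between the groups for 19 carriers that were lower (22.8% of all genes) and 5 that were higher (24.5% of all genes). Both counts of 5 include Slc25a43, which passed the filter on low counts only through libraries of infarcted hearts. The median log2 fold change was -0.48 over the 40 carriers and 0.01 over all genes tested. Summed over all members, carriers reached 5159 ± 1554 CPM in control vector MI hearts and 11474 ± 709 CPM in sham hearts (SD, n = 4 each). The highest control vector MI library, at 6784 CPM, lay below the lowest sham library, at 10727 CPM. The cardiomyocyte markers fell with the carriers, 10 of 12 of them, with a median log2 fold change of -1.21, and the markers of fibroblasts (8 of 8), macrophages (8 of 8) and cycling cells (6 of 6) rose. Their part in the carrier changes was not tested.

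**Figure D2:**
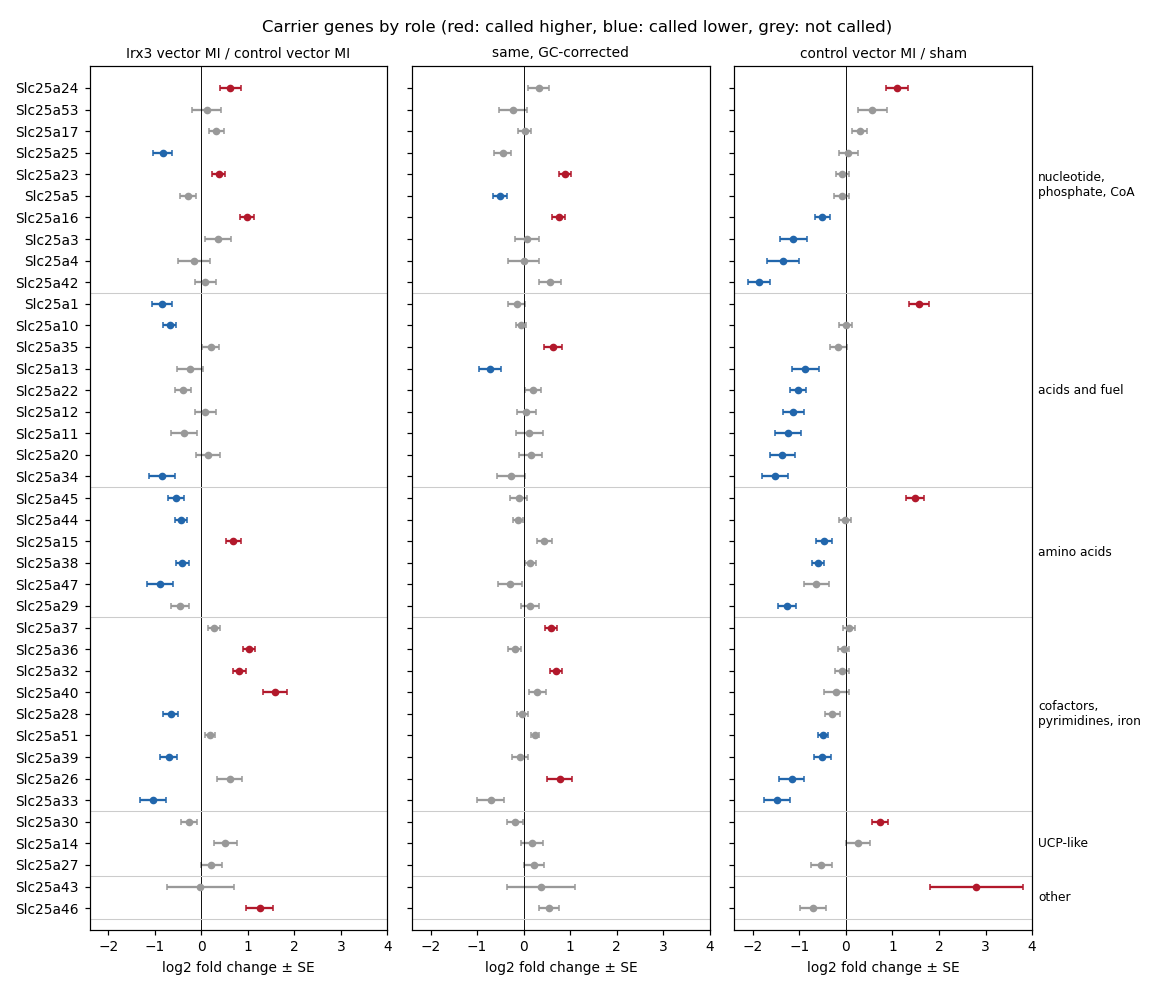
Log2 fold change with its standard error for 39 carriers, grouped by role, for Irx3 vector MI over control vector MI (left), the same after correction for GC content (middle) and control vector MI over sham (right). Red points were called higher and blue points lower at an edgeR adjusted p under 0.05. The blue points on the right include Slc25a42 at -1.88, and only 3 of the 19 calls on the left are called again in the middle.

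Among the carriers grouped with adenine nucleotides, phosphate and coenzyme A, 4 of 10 tested members fell after infarction (22.4% of all genes) and 1 rose (26.3%). Slc25a4 had 2778, 3620, 2679 and 1168 CPM in control vector MI hearts, against 5927, 6459, 7287 and 6466 CPM in sham hearts. All 4 control vector MI libraries lay below all 4 sham libraries, with replicate 4 the lowest, and Slc25a4 was 2.55-fold lower (log2 fold change -1.35, SE 0.35, edgeR adjusted p = 0.00634). Slc25a42, which brings coenzyme A into the matrix, had the largest fall among the tested genes named Slc25a. It had 59.4, 62.0, 41.4 and 32.5 CPM in control vector MI hearts, against 177, 173, 203 and 164 CPM in sham hearts. The groups were far apart, and Slc25a42 was 3.67-fold lower (log2 fold change -1.88, SE 0.24, edgeR adjusted p = 7.03e-05). Slc25a3 averaged 591 ± 219 CPM in control vector MI hearts and 1294 ± 44.1 CPM in sham hearts (SD, n = 4 each), a log2 change of -1.13 (SE 0.29, edgeR adjusted p = 0.00589). Slc25a16, a relative of the yeast coenzyme A carrier, was lower by a smaller step, at 16.5, 21.1, 18.05 and 14.3 CPM in control vector MI hearts, against 27.1, 22.5, 26.6 and 23.1 CPM in sham hearts. Its groups did not overlap, and its log2 fold change was -0.50 (SE 0.16, edgeR adjusted p = 0.0185), with an adjusted p of 0.0523 without sham replicate 1 and 0.0504 without sham replicate 3 in edgeR.

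Slc25a5, the other ADP/ATP carrier with appreciable counts, did not pass the test. It had 294, 290, 301 and 248 CPM in control vector MI hearts, against 276, 317, 304 and 310 CPM in sham hearts. These groups overlapped, and the log2 fold change was -0.09 (SE 0.16, edgeR adjusted p = 0.67). Of the calcium-regulated ATP-Mg/phosphate carriers, Slc25a24 rose. It had 9.05, 11.2, 9.28 and 9.51 CPM in control vector MI hearts, against 5.41, 4.52, 3.48 and 4.80 CPM in sham hearts. It was higher in every control vector MI library than in any sham library (log2 fold change 1.10, SE 0.23, edgeR adjusted p = 0.00188). Its relatives Slc25a23 and Slc25a25 had log2 fold changes of -0.08 (edgeR adjusted p = 0.665) and 0.05 (edgeR adjusted p = 0.843).

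Of the 9 tested carriers grouped with dicarboxylates, citrate, aspartate, glutamate and acylcarnitine, 6 fell (22.4% of all genes) and 1 rose (26.3% of all genes). Their median log2 fold change was -1.04, and the 6 include Slc25a34, of unsettled substrate. Slc25a20, the carnitine-acylcarnitine carrier, had 117, 146, 102 and 59.8 CPM in control vector MI hearts, against 277, 269, 292 and 257 CPM in sham hearts. The groups did not overlap, and Slc25a20 was 2.58-fold lower (log2 fold change -1.37, SE 0.27, edgeR adjusted p = 0.00117). Slc25a11, a carrier of the malate-aspartate shuttle, had 370, 432, 368 and 177 CPM in control vector MI hearts, against 745, 795, 877 and 777 CPM in sham hearts. It was 2.37-fold lower (log2 fold change -1.25, SE 0.28, edgeR adjusted p = 0.00278), again with every control vector MI library below every sham library.

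The other partners of that shuttle, the calcium-binding aspartate-glutamate carriers, fell as well. Slc25a12, the isoform of muscle and brain (aralar), had 158, 235, 175 and 108 CPM in control vector MI hearts, against 368, 359, 369 and 385 CPM in sham hearts (log2 fold change -1.13, SE 0.23, edgeR adjusted p = 0.00149). Slc25a13, the isoform best known from liver (citrin), had 70.3, 111, 84.3 and 37.1 CPM in control vector MI hearts, against 157, 119, 118 and 159 CPM in sham hearts. Neither gene overlapped between the groups. The fall of Slc25a13 (log2 fold change -0.87, SE 0.28, edgeR adjusted p = 0.0217) missed the threshold without sham replicate 1 or 4, at edgeR adjusted p values of 0.0554 and 0.0575. Slc25a22, a glutamate carrier, fell by 1.04 on the log2 scale (SE 0.17, edgeR adjusted p = 0.000379). Slc25a34 had 229, 225, 190 and 98.7 CPM in control vector MI hearts, against 509, 552, 572 and 492 CPM in sham hearts, and was 2.86-fold lower (log2 fold change -1.52, SE 0.28, edgeR adjusted p = 0.000784).

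Slc25a1, the citrate carrier that supplies cytosolic acetyl-CoA for fatty acid and sterol synthesis, went the other way. It had 23.6, 15.9, 25.1 and 36.1 CPM in control vector MI hearts, against 8.21, 9.61, 7.24 and 8.76 CPM in sham hearts. All control vector MI libraries lay above all sham libraries, with replicate 4 the highest, and Slc25a1 was 2.97-fold higher (log2 fold change 1.57, SE 0.22, edgeR adjusted p = 0.000139). The dicarboxylate carrier Slc25a10 averaged 26.0 ± 3.22 CPM in control vector MI hearts and 26.1 ± 3.37 CPM in sham hearts (SD, n = 4 each), and its difference did not pass the test (log2 fold change -0.01, edgeR adjusted p = 0.969).

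Among the 6 tested carriers grouped with amino acids, 3 fell (22.4% of all genes) and 1 rose, a share below the 26.3% of all genes. Slc25a29, a carrier of basic amino acids, had 7.15, 10.1, 7.80 and 8.42 CPM in control vector MI hearts, against 18.5, 23.5, 21.98 and 16.5 CPM in sham hearts. It was 2.41-fold lower, with the groups apart (log2 fold change -1.27, SE 0.19, edgeR adjusted p = 0.000217). Slc25a38, the glycine carrier needed for haem synthesis, fell by 0.60 on the log2 scale (SE 0.13, edgeR adjusted p = 0.00241). Slc25a15, the ornithine carrier of the urea cycle, averaged 9.57 ± 0.793 CPM in control vector MI hearts and 13.3 ± 1.04 CPM in sham hearts (SD, n = 4 each). Its call (log2 fold change -0.47, SE 0.17, edgeR adjusted p = 0.0302) was lost without sham replicate 1, 2 or 3, at edgeR adjusted p values of 0.0750, 0.0550 and 0.0621. Slc25a45, a relative of these carriers, had 14.3, 14.1, 13.9 and 19.3 CPM in control vector MI hearts, against 5.62, 6.47, 5.32 and 4.59 CPM in sham hearts. Every control vector MI library was higher than every sham library, and Slc25a45 was 2.80-fold higher (log2 fold change 1.49, SE 0.19, edgeR adjusted p = 7.42e-05).

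Of the 10 carriers grouped with cofactors, pyrimidine nucleotides and iron, 5 fell (22.4% of all genes) and 0 rose (26.3% of all genes) by edgeR. By DESeq2 0 of 10 rose as well, and 0 had an unadjusted edgeR p under 0.05 in that direction. The largest fall was that of Slc25a33, a pyrimidine nucleotide carrier, with 14.8, 19.5, 17.1 and 8.47 CPM in control vector MI hearts, against 44.2, 36.3, 35.3 and 52.4 CPM in sham hearts. The groups did not overlap, and the gene was 2.81-fold lower (log2 fold change -1.49, SE 0.28, edgeR adjusted p = 0.000818). Slc25a26, which brings S-adenosylmethionine into the matrix, averaged 10.9 ± 4.13 CPM in control vector MI hearts and 24.5 ± 3.60 CPM in sham hearts (SD, n = 4 each; log2 fold change -1.17, SE 0.27, edgeR adjusted p = 0.00332). Slc25a51, the NAD carrier, fell by 0.49 on the log2 scale (SE 0.11, edgeR adjusted p = 0.00234). Slc25a39, a glutathione carrier, had a log2 change of -0.51 (SE 0.18, edgeR adjusted p = 0.0319), which missed the threshold without sham replicate 2, 3 or 4, at edgeR adjusted p values of 0.0523, 0.0848 and 0.0682. The mitoferrins, which import iron, did not pass the test, with log2 fold changes of 0.07 for Slc25a37 (edgeR adjusted p = 0.709) and -0.29 for Slc25a28 (edgeR adjusted p = 0.163).

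Among the relatives of the uncoupling proteins, Slc25a30 rose by 0.73 on the log2 scale (SE 0.17, edgeR adjusted p = 0.00401), at 16.5 ± 3.05 CPM in control vector MI hearts and 9.97 ± 0.652 CPM in sham hearts (SD, n = 4 each). Slc25a43, a member of unsettled substrate, was called higher on very few counts. It passed the filter on low counts only through libraries of infarcted hearts, so its call is no support for a rise. With the 2 groups fitted alone, 4 of 39 tested carriers were called higher, and Slc25a43 was not tested. It had 13, 5, 8 and 12 counts in control vector MI libraries, against 0, 0, 0 and 4 counts in sham libraries, and the call (edgeR adjusted p = 0.0323) missed the threshold in edgeR without sham replicate 1 (0.0820), 2 (0.0838) or 3 (0.0835) and without control vector MI replicate 1 (0.0731), 3 (0.0535) or 4 (0.0607). Its fitted log2 fold change, 2.80, was 6.18 without sham replicate 4. Correction for GC content, described with the next comparison, kept 22 of these 23 calls of infarction against sham and lost that of Slc25a15. It added 4, for 20 lower (23.2% of all 15186 genes with a known GC content) and 6 higher (29.8%).

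With the Irx3 vector, carriers moved in both directions relative to the control vector after infarction, and most of that followed the base composition of the transcripts. From the deposited counts 8 of the 40 carriers were higher (20%, against 25.2% of all genes) and 11 were lower (27.5%, against 24.1% of all genes) by edgeR. Groups did not overlap for 6 higher carriers (22.1% of all genes) and 7 lower ones (18.9% of all genes). The shares of carriers called were close to the background, and the median log2 fold change was 0.08 over carriers and 0.0015 over all genes tested. Across the 40 carriers the log2 fold change had a Spearman correlation of -0.75 with GC content, given as a description since these genes share the same 8 libraries. Over 15186 genes the same value was -0.64. In the third of carriers lowest in GC content (39.2% to 49.0%) 7 of 13 were called higher, and in the third highest in GC content (55.9% to 60.5%) 1 was called higher and 7 of 13 lower. Within each library the deviation of log2 CPM from the gene's mean had a Spearman correlation with GC content of -0.54 to -0.45 in Irx3 vector MI libraries, 0.02 to 0.50 in control vector MI libraries and 0.10 to 0.33 in sham libraries. The trend and the vector go together in these groups, so they cannot be told apart from the design.

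**Figure D3:**
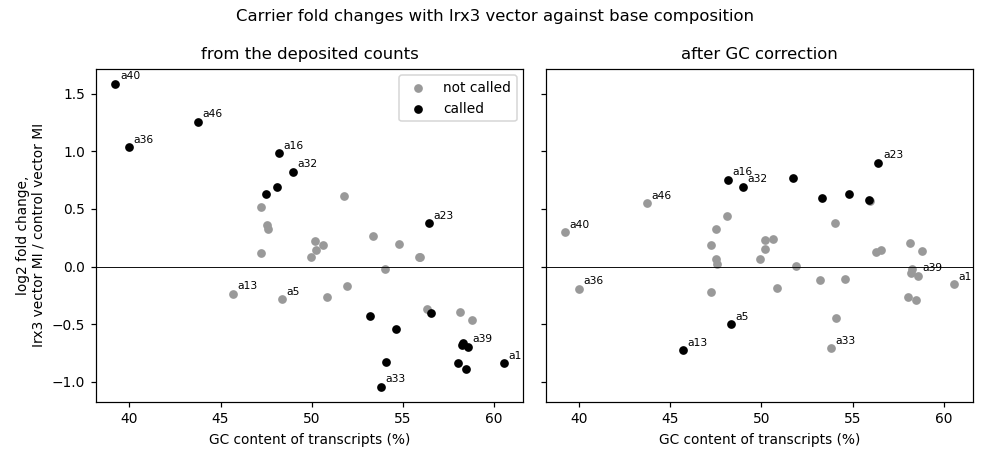
Log2 fold change of the 40 tested carriers for Irx3 vector MI over control vector MI against the GC content of their transcripts in percent, from the deposited counts and after correction for GC content. Before correction the points slope down (Spearman -0.75), and after correction the slope is nearly flat (Spearman -0.09). The correction removes each library's trend on GC content, so the flatter slope largely follows from the correction itself.

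After a correction of each library for its trend on GC content, 7 carriers were called higher (17.5%, against 14.9% of all 15186 genes with a known GC content) and 2 lower (5%, against 13.9%). Only 3 of the 19 calls, Slc25a16, Slc25a32 and Slc25a23, were made with and without the correction, and 6 were made only with it. No carrier was called in opposite directions by the 2 fits. The 3 carriers called in both fits were higher with the vector.

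Slc25a16 had 28.5, 36.1, 29.9 and 43.9 CPM in Irx3 vector MI hearts, against 16.5, 21.1, 18.05 and 14.3 CPM in control vector MI hearts. All Irx3 vector libraries lay above all control vector MI libraries and above the sham libraries too, and Slc25a16 was 1.98-fold higher (log2 fold change 0.98, SE 0.16, edgeR adjusted p = 0.000332). With GC correction the log2 fold change was 0.75 (SE 0.13, edgeR adjusted p = 0.00157). Slc25a32, the folate carrier that also supplies FAD, had 22.4, 21.0, 18.8 and 19.5 CPM in Irx3 vector MI hearts, against 10.2, 13.4, 13.2 and 9.51 CPM in control vector MI hearts. Again no library overlapped, with a log2 change of 0.82 (SE 0.15, edgeR adjusted p = 0.000651) and of 0.69 with GC correction (SE 0.13, edgeR adjusted p = 0.00205). Both were called in all 21 alternatives run, with log2 fold changes of 0.57 to 1.09 for Slc25a16 and 0.66 to 0.90 for Slc25a32 over those alternatives. Slc25a23 had 82.0, 120, 78.3 and 103 CPM in Irx3 vector MI hearts, against 72.9, 80.0, 70.2 and 72.7 CPM in control vector MI hearts. These groups overlapped, and the log2 fold change was 0.37 (SE 0.14, edgeR adjusted p = 0.0348), or 0.90 with GC correction (SE 0.13, edgeR adjusted p = 0.000499). Slc25a23 was called in 12 of the 21 alternatives. Without the correction its call was lost on leaving out Irx3 vector replicate 2 (edgeR adjusted p = 0.101) or 4 (0.0784), control vector MI replicate 1 (0.0669) or 3 (0.0715), or sham replicate 3 (0.05001), among others.

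Slc25a40, Slc25a46 and Slc25a36 had the largest rises from the deposited counts, were low in GC content and were not called after correction. Slc25a15 and Slc25a24, with smaller rises and GC contents of 48.1% and 47.5%, were not called after it either. Slc25a16 and Slc25a32, which stayed called, had similar GC contents of 48.2% and 49.0%. Slc25a40, a glutathione carrier with a GC content of 39.2%, had 10.46, 9.34, 15.7 and 10.4 CPM in Irx3 vector MI hearts, against 3.34, 5.001, 4.50 and 2.48 CPM in control vector MI hearts. The groups were apart, with a log2 change of 1.59 (SE 0.27, edgeR adjusted p = 0.000426), against 0.30 with GC correction (edgeR adjusted p = 0.263). Slc25a36, a pyrimidine nucleotide carrier with a GC content of 40.0%, had 58.3, 53.3, 65.4 and 60.2 CPM in Irx3 vector MI hearts, against 27.3, 33.3, 30.0 and 25.4 CPM in control vector MI hearts. Its log2 fold change was 1.03 (SE 0.12, edgeR adjusted p = 6.17e-05) and turned to -0.19 with GC correction (edgeR adjusted p = 0.291). Slc25a46, an outer membrane member linked to mitochondrial fission and shape, had 43.0, 50.7, 49.0 and 80.3 CPM in Irx3 vector MI hearts, against 18.3, 33.8, 29.8 and 11.5 CPM in control vector MI hearts. The groups were apart here too, with a log2 change of 1.25 (SE 0.29, edgeR adjusted p = 0.0032), against 0.55 with GC correction (edgeR adjusted p = 0.0851). Slc25a15 had a log2 change of 0.69 (SE 0.17, edgeR adjusted p = 0.00408), against 0.44 with GC correction (edgeR adjusted p = 0.0568). Slc25a24 had 21.3, 11.3, 17.3 and 10.2 CPM in Irx3 vector MI hearts, against 9.05, 11.2, 9.28 and 9.51 CPM in control vector MI hearts. Replicates 1 and 3 held the higher values, and its call (log2 fold change 0.63, edgeR adjusted p = 0.0322) was lost without Irx3 vector replicate 1 (0.125) or 3 (0.0835) and without control vector MI replicate 1 (0.0815), 3 (0.0733) or 4 (0.0552).

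The carriers that were lower with the vector were mostly rich in GC, and the 2 carriers called lower after correction were not among these 11. Slc25a33 had 5.48, 8.09, 4.74 and 10.9 CPM in Irx3 vector MI hearts, against 14.8, 19.5, 17.1 and 8.47 CPM in control vector MI hearts. Control vector MI replicate 4 lay within the range of the Irx3 vector hearts, and the log2 change of -1.04 (SE 0.28, edgeR adjusted p = 0.00844) was -0.71 with GC correction (edgeR adjusted p = 0.0889). Slc25a1 had 17.4, 13.1, 14.3 and 11.5 CPM in Irx3 vector MI hearts, against 23.6, 15.9, 25.1 and 36.1 CPM in control vector MI hearts, and the groups overlapped through control vector MI replicate 2. Its log2 fold change was -0.84 (SE 0.22, edgeR adjusted p = 0.00597), against -0.15 with GC correction (edgeR adjusted p = 0.553). Slc25a34 had 54.3, 114, 116 and 131 CPM in Irx3 vector MI hearts, against 229, 225, 190 and 98.7 CPM in control vector MI hearts. Its log2 change of -0.84 (SE 0.28, edgeR adjusted p = 0.0229) missed the threshold without control vector MI replicate 1 (edgeR adjusted p = 0.0643) and was -0.27 with GC correction (edgeR adjusted p = 0.537). Slc25a47, a carrier best known from liver, had 1.97, 4.26, 2.07 and 4.41 CPM in Irx3 vector MI hearts, against 5.14, 5.67, 6.89 and 5.73 CPM in control vector MI hearts. Its groups were apart, with a log2 change of -0.89 (SE 0.27, edgeR adjusted p = 0.0154), against -0.29 with GC correction (edgeR adjusted p = 0.436). Slc25a25, Slc25a39, Slc25a10, Slc25a28, Slc25a45, Slc25a44 and Slc25a38 had log2 fold changes of -0.83 to -0.41 from the deposited counts. After correction theirs ran from -0.45 to 0.15. The call of Slc25a38 was also lost in edgeR without control vector MI replicate 1 (adjusted p = 0.0653) or 3 (0.0562) and without Irx3 vector replicate 1 (0.0551) or 2 (0.0679).

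Of the 6 carriers called only with GC correction, 4 were higher with the vector. Slc25a37, mitoferrin 1, had a corrected log2 fold change of 0.59 (edgeR adjusted p = 0.00594), against 0.27 from the deposited counts. Slc25a26 and Slc25a35 had corrected values of 0.77 (edgeR adjusted p = 0.0475) and 0.63 (edgeR adjusted p = 0.0275), against 0.61 and 0.20 before. The 2 carriers called lower only after correction were Slc25a13, at -0.73 (edgeR adjusted p = 0.0371), against -0.24 before, and Slc25a5, at -0.50 (edgeR adjusted p = 0.023), against -0.29 before. Most of the 21 alternatives run left out the GC correction, and these carriers were picked for having no call without it. Low totals of calls are therefore largely set by that choice. Slc25a37 was called in 5 of the 21 alternatives, Slc25a26 in 2, Slc25a35 in 1, Slc25a13 in 3 and Slc25a5 in 4.

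Of the 5 carriers with the highest level per length in sham hearts, Slc25a34 was called lower from the deposited counts, as given above, and Slc25a5 only with GC correction. The other three, Slc25a4, Slc25a11 and Slc25a3, did not pass the test in either fit. Slc25a4 had 1391, 2595, 1693 and 3457 CPM in Irx3 vector MI hearts, within the range of the control vector MI hearts, and a log2 change of -0.17 (SE 0.34, edgeR adjusted p = 0.715), or 0.01 with GC correction. Slc25a3 had 508, 781, 612 and 1123 CPM in Irx3 vector MI hearts, against 567, 852, 625 and 318 CPM in control vector MI hearts (log2 fold change 0.36, SE 0.29, edgeR adjusted p = 0.319). Slc25a11, Slc25a20, Slc25a12 and Slc25a42 had log2 fold changes of -0.37, 0.15, 0.08 and 0.09, with edgeR adjusted p values of 0.284, 0.674, 0.782 and 0.778. The summed carrier level was 4847 ± 1592 CPM in Irx3 vector MI hearts and 5159 ± 1554 CPM in control vector MI hearts (SD, n = 4 each). The cardiomyocyte markers, with 1 of 12 higher and 2 lower by edgeR, had a median log2 fold change of -0.25, or 0.0078 with GC correction. Among markers of other cells, 3 of 8 endothelial markers were higher and 5 lower, or 1 and 2 with GC correction. Of the 6 markers of cycling cells 3 were lower (median log2 fold change -0.84), or 2 with GC correction, and 1 of the 8 fibroblast markers was lower, or 2 with it. Of all genes 25.2% were higher and 24.1% lower, or 14.9% and 13.9% with GC correction. The share of fibroblast markers called lower without correction was below that background. The endothelial markers summed to 979.8–1072 CPM in Irx3 vector MI hearts and 1091–1457 CPM in control vector MI hearts. The cycling markers summed to 21.4–60.7 CPM in Irx3 vector MI hearts and 37.1–48.9 CPM in control vector MI hearts. The part of these cells in the carrier changes was not tested.

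The contrasts of infarction and of the vector share the control vector MI libraries, so a high or low value there moves them in opposite directions. For carriers called in both, each contrast's own log2 fold changes are set side by side, and how often a gene is called in both is not read as a result. Slc25a1 and Slc25a45 were higher after infarction (1.57 and 1.49) and lower with the vector (-0.84 and -0.54). For Slc25a45 the second call was lost without Irx3 vector replicate 2 (edgeR adjusted p = 0.0873) or 4 (0.0624), or control vector MI replicate 4 (0.0866), and neither gene's second call was made after GC correction. Slc25a16 and Slc25a15 were lower after infarction (-0.50 and -0.47) and higher with the vector (0.98 and 0.69). Both calls of Slc25a16 were made with GC correction as well, and its first was lost without sham replicate 1 (edgeR adjusted p = 0.0523) or 3 (0.0504). Neither call of Slc25a15 was made after GC correction. Its corrected values were -0.39 after infarction (edgeR adjusted p = 0.0589) and 0.44 with the vector (edgeR adjusted p = 0.0568). Slc25a33, Slc25a34, Slc25a38 and Slc25a39 were called lower in both contrasts from the deposited counts, and Slc25a24 was called higher in both. With GC correction none of these calls with the vector was made.

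Against sham hearts, the infarcted hearts with the Irx3 vector had 20 of 40 carriers lower (50%, against 27.7% of all genes) and 12 higher (30%, against 35.2%) by edgeR. With GC correction 16 were lower (40%, against 23.0%) and 9 higher (22.5%, against 32.4%), and 23 of the 32 calls were shared by both fits. Groups did not overlap for 20 lower carriers (27.6% of all genes) and 9 higher ones (33.2% of all genes). The median log2 fold change was -0.41 over carriers and 0.12 over all genes tested. Slc25a33, Slc25a34, Slc25a42 and Slc25a29 were lowest, with log2 fold changes of -2.53, -2.36, -1.79 and -1.74, and each was called with GC correction as well, at -2.17, -1.78, -1.29 and -1.14. Slc25a4 was 2.86-fold lower (log2 fold change -1.52, SE 0.35, edgeR adjusted p = 0.00216). Slc25a24 was 3.30-fold higher (log2 fold change 1.72, SE 0.23, edgeR adjusted p = 4.44e-05), with a call after GC correction as well. Slc25a32 was higher by 0.74 (edgeR adjusted p = 0.000752) and by 0.69 with GC correction (edgeR adjusted p = 0.000685). Slc25a16 was higher by 0.48 (edgeR adjusted p = 0.0176), which missed the threshold with GC correction (0.32, edgeR adjusted p = 0.054) and without Irx3 vector replicate 2 (edgeR adjusted p = 0.0609) or 4 (0.0634) or sham replicate 2 (0.0569) or 4 (0.0538). Leaving out Irx3 vector replicate 1 reduced the 12 carriers called higher to 7. The 12 include Slc25a43, which passed the filter on low counts only through libraries of infarcted hearts.

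Ratios of related carriers within a library do not depend on how libraries are scaled. For 4 pairs and 3 comparisons, 12 two-sided exact permutation tests were run, where the smallest p that 4 against 4 libraries allows is 0.029. With 6 of the 12 tests at that p its adjusted value was 0.057, so none passed an adjusted threshold of 0.05. Slc25a5 counts per count of Slc25a4 were 0.146, 0.0925, 0.106 and 0.0892 in Irx3 vector MI hearts, 0.106, 0.0802, 0.112 and 0.213 in control vector MI hearts, and 0.0465, 0.0491, 0.0417 and 0.0479 in sham hearts. All 8 infarcted hearts had a higher ratio than all 4 sham hearts, and the infarcted groups overlapped. The log2 ratio was higher by 1.37 in control vector MI than in sham hearts (exact permutation p = 0.029, adjusted 0.057) and its difference between Irx3 vector MI and control vector MI hearts was -0.17 (exact permutation p = 0.686).

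From the deposited counts the ratio of mitoferrin 1 to mitoferrin 2, Slc25a37 to Slc25a28, was the one of the 4 ratios that separated the infarcted groups. It was 1.37, 0.780, 0.847 and 0.817 in Irx3 vector MI hearts, 0.474, 0.573, 0.454 and 0.461 in control vector MI hearts, and 0.466, 0.381, 0.303 and 0.395 in sham hearts. Every Irx3 vector library lay above every other library, with replicate 1 the highest. The log2 ratio was higher by 0.93 with the Irx3 vector than with the control vector (exact permutation p = 0.029, adjusted 0.057) and by 0.63 after GC correction of both genes. The ratio of Slc25a24 to Slc25a23 was higher by 1.19 on the log2 scale in control vector MI than in sham hearts (exact permutation p = 0.029, adjusted 0.057), with no overlap. In Irx3 vector MI hearts it was split, at 0.259 and 0.221 in replicates 1 and 3 and at 0.0940 and 0.0987 in replicates 2 and 4. The ratio of Slc25a13 to Slc25a12 averaged -1.48 ± 0.0889 in Irx3 vector MI hearts, -1.21 ± 0.227 in control vector MI hearts and -1.44 ± 0.216 in sham hearts on the log2 scale (SD, n = 4 each), and its groups overlapped. With GC correction of both genes its log2 difference between Irx3 vector MI and control vector MI hearts was -0.77, against -0.27 from the deposited counts, at the smallest p the design allows (exact permutation p = 0.029).

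**Figure D4:**
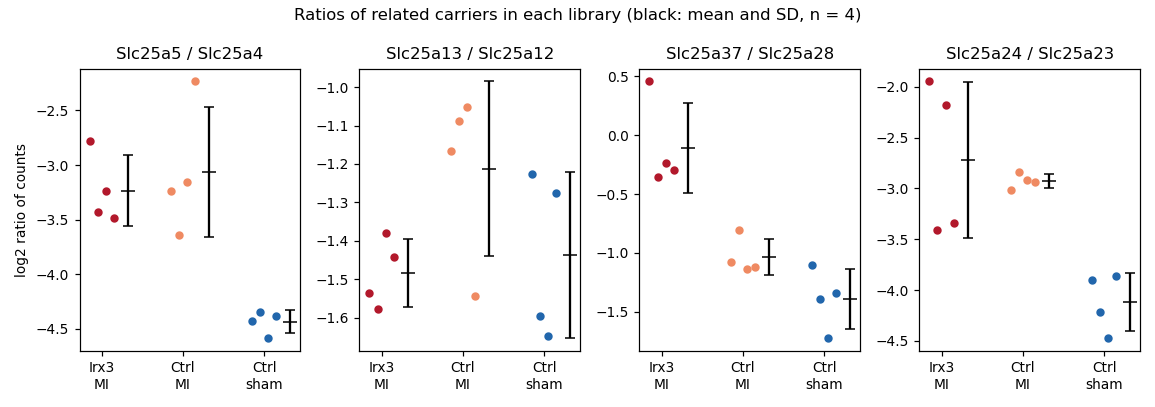
Log2 ratio of counts for 4 pairs of related carriers, with a point for each library and the mean with SD (n = 4) beside it, for Irx3 vector MI, control vector MI and sham hearts. The ratio of Slc25a5 to Slc25a4 is higher in all 8 infarcted hearts than in the 4 sham hearts, and the ratio of Slc25a37 to Slc25a28 is highest in the 4 hearts with the Irx3 vector.

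Members of the same protein family under other names changed too, and 3 of the 4 tested were lower with the vector (24.1% of all genes were), the same number with GC correction (13.9% of all genes). Ucp2, an uncoupling protein of many tissues and of immune cells, averaged 105 ± 30.8 CPM in Irx3 vector MI hearts, 488 ± 135 CPM in control vector MI hearts and 210 ± 14.6 CPM in sham hearts (SD, n = 4 each). It rose by 1.22 on the log2 scale after infarction (edgeR adjusted p = 0.000734) and was lower by 2.22 with the Irx3 vector (log2 fold change -2.22, SE 0.23, edgeR adjusted p = 2.71e-05), or -1.72 with GC correction (edgeR adjusted p = 0.000245). Ucp3, the uncoupling protein of muscle, averaged 10.9 ± 7.17 CPM in Irx3 vector MI hearts, 67.7 ± 43.2 CPM in control vector MI hearts and 280 ± 44.2 CPM in sham hearts (SD, n = 4 each). Its log2 fold change was -2.65 with the vector (SE 0.52, edgeR adjusted p = 0.0012), or -2.27 with GC correction (edgeR adjusted p = 0.00754), and -2.05 after infarction (edgeR adjusted p = 0.00455). Mtch1, an outer membrane relative, was higher by 0.93 after infarction (edgeR adjusted p = 0.00111) and lower by 1.19 on the log2 scale with the vector (log2 fold change -1.19, edgeR adjusted p = 0.000232), or -0.62 with GC correction (edgeR adjusted p = 0.00608). Of the 8 macrophage markers, whose sum was 821–1558 CPM in Irx3 vector MI hearts and 1214–2799 CPM in control vector MI hearts, 4 were lower with the vector (24.1% of all genes), or 1 with GC correction (13.9% of all genes). Their part in the level of Ucp2 was not tested.

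Genes that work beside the carriers were counted in the same way. Of 20 enzymes that work on either side of the shuttles, 13 were lower (22.4% of all genes were) and 3 higher (26.3% of all genes) after infarction by edgeR, with a median log2 fold change of -0.94. The largest fall was that of Cpt2, the matrix partner of Slc25a20 in fatty acid import, at 124 ± 44.1 CPM in control vector MI hearts and 416 ± 11.2 CPM in sham hearts (SD, n = 4 each; log2 fold change -1.74, edgeR adjusted p = 0.000323). The largest fitted rise was that of Ckmt1 (log2 fold change 4.86, edgeR adjusted p = 4.33e-05). Ckmt1 averaged 2.16 CPM in control vector MI hearts and was near the limit of detection in sham hearts, at 0.0686 CPM. With the vector 3 of the 20 were higher and 4 lower, shares below the 25.2% and 24.1% of all genes. Of 13 genes for the import of carriers into the inner membrane, 4 were lower after infarction by edgeR, against 22.4% of all genes. With the vector 4 of the 13 were higher and 3 lower, which is near the background of 25.2% and 24.1%, or 1 and 1 with GC correction, below the 14.9% and 13.9% of all genes. Tomm70a, the outer membrane receptor for carrier precursors, was higher by 1.08 on the log2 scale with the vector (edgeR adjusted p = 0.00129) and at -0.21 with GC correction (edgeR adjusted p = 0.25). Of 18 outer membrane channels and other inner membrane transporters, 8 were lower after infarction (22.4% of all genes were) and 5 were higher, near the 26.3% of all genes. Of 7 tested iron and haem genes beside the mitoferrins, 4 were lower after infarction (22.4% of all genes), and Tfrc, the transferrin receptor, was higher by 2.69 with the vector (SE 0.52, edgeR adjusted p = 0.00101), or 1.86 with GC correction (edgeR adjusted p = 0.00878). Tfrc had 59.5 ± 32.5 CPM in Irx3 vector MI hearts, 9.27 ± 8.32 CPM in control vector MI hearts and 8.60 ± 0.516 CPM in sham hearts (SD, n = 4 each).

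Exons of 15 pairs of a carrier and another gene overlap in GENCODE M21, on the same or the opposite strand, and the sources used here do not say whether counting used strand. The longest overlaps were those of Slc25a35 with Rangrf (1151 bases), Slc25a46 with B930094E09Rik (383), Slc25a37 with Gm31748 (381) and Slc25a25 with Naif1 (379), all on the opposite strand. Slc25a33 (281 bases with Gm13068), Slc25a11 (189 with Rnf167), Slc25a23 (168 with Gm17168) and Slc25a26 (144 with Lrig1) overlap as well. Reads in those bases cannot be told apart between the partners if counting ignored strand.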

How the data were processed

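The authors deposited whole-number read counts for 12 libraries of polyadenylated RNA, 1 per mouse and all in 1 batch, from reads trimmed with fastp on build GRCm39, per the submitters' processing notes. Aligner, counter, annotation and strand: not given in the sources used here. Carriers and all other genes were fitted together by the quasi-likelihood test of edgeR 4.0.16 (R 4.3.3) with TMM factors, robust fitting and filterByExpr, over 15742 genes and all 12 libraries, with Benjamini-Hochberg adjustment over all genes. Standard errors are the fold change over the root of F. GC content came from GENCODE M21 transcripts (GRCm38), matched by symbol for 96.5% of tested genes. The correction entered as an offset a spline (6 degrees of freedom, natural) of each library's log2 CPM deviations on GC content. It was refitted in 3 rounds, dropping residuals over 2.5 MAD. Alternatives were RLE factors, DESeq2 1.42.0, no filter, the 2 groups compared alone, replicate number as a block, libraries left out and the GC correction. Fits were tested on simulated counts. Members, gene lists and tests were chosen with earlier results of these data known. Every member may be named, with full values for the largest called changes each way, the ratio genes and members called in opposite directions. edgeR p-values rest on the spread among these mice, estimated per gene over all 3 groups of 4 and moderated across genes. Intervals and floors cover counting error only. 882 rows repeating a symbol, 0.0011% of counts, were kept as separate rows. Values of 1 carrier are not reported here.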

Additional observations from a re-analysis of the deposited data

Results flagged for a closer look

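In 132 groups of 4 libraries examined (40 carriers and 4 ratios in 3 groups), 6 held a library whose gap to its nearest neighbour, over the range of the group, passed Dixon's 95% critical value for groups of 4. Chance gives about 1 such group in 20. Slc25a34 had 54.3 CPM in Irx3 vector MI replicate 1, with the others at 114 to 131 CPM. Slc25a51 had 84.4 CPM in Irx3 vector MI replicate 4, with the others at 69.0 to 70.9 CPM. Control vector MI replicate 4 was low for Slc25a26, at 4.86 CPM with the others at 11.96 to 14.1 CPM, and high for Slc25a45, at 19.3 CPM with the others at 13.9 to 14.3 CPM. The same library had the lowest mitochondrial share of its group, 0.926%. Slc25a43 had 0.278 CPM in sham replicate 4, from 4 counts, and 0 in the other sham libraries. The log2 ratio of Slc25a37 to Slc25a28 was 0.458 in Irx3 vector MI replicate 1, with the others at -0.358 to -0.240.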

How the results depend on the processing

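Counts of called carriers stayed within 1.5 times under RLE factors, DESeq2, no filter, the 2 groups compared alone and the replicate block without GC correction. Of 74 called values over the 3 comparisons, RLE factors and DESeq2 each lost 2, the 2 groups alone 3 of 72, no filter 8 and the replicate block 10, and none of these reversed a value. For Irx3 vector against control vector MI, the carriers called lower were 11, with GC correction 2, with the replicate block and GC correction 0 (4 at an unadjusted p under 0.05 in edgeR), and without replicates 4 of both infarcted groups with GC correction 4. Those called higher were 8, and 5 under each of the last 2 settings. Leaving out 1 library at a time gave 4 to 5 higher and 15 to 21 lower for infarction against sham. It gave 6 to 9 higher and 9 to 13 lower for Irx3 vector against control vector MI, and 7 to 12 higher and 18 to 22 lower for Irx3 vector MI against sham. With GC correction 8 of the 12 ratio tests stood at the smallest exact permutation p of the design, 0.029, against 6 without it. The adjusted value at that p is therefore 0.043 in place of 0.057, whatever the size of the differences, and passing the threshold shows no stronger separation. Not all of the 6 are among the 8. The log2 ratio of Slc25a24 to Slc25a23 in Irx3 vector MI against sham hearts was higher by 1.40 without correction (exact permutation p = 0.029). With correction it was higher by 0.62 (exact permutation p = 0.257). The differences with and without correction were 1.39 and 1.37 (control vector MI) and 0.82 and 1.20 (Irx3 vector MI) for Slc25a5 to Slc25a4 against sham, -0.77 and -0.27 (against control vector MI) and -0.56 and -0.048 (against sham) for Slc25a13 to Slc25a12 with the Irx3 vector, 0.42 and 0.35 (control vector MI against sham), 0.63 and 0.93 (Irx3 vector against control vector MI) and 1.04 and 1.28 (Irx3 vector MI against sham) for Slc25a37 to Slc25a28, and 1.26 and 1.19 for Slc25a24 to Slc25a23 in control vector MI against sham. Values of Irx3 vector against control vector MI that reversed, with GC correction, with the block and GC correction, and without replicates 4 with GC correction, were Slc25a36 (-0.19, -0.19 and -0.13) and Slc25a38 (0.15, 0.14 and 0.0060). In the last setting alone Slc25a28 (0.018), Slc25a1 (0.052) and Slc25a45 (0.070) reversed too. Against sham, Slc25a36 reversed in the same 3 settings (-0.11, -0.10 and -0.078). Slc25a46, not called against sham from the deposited counts (0.55, edgeR adjusted p = 0.111), was called lower without replicates 4 with GC correction (-0.32, edgeR adjusted p = 0.047). A value that passed in neither fit was given no direction. The cause of these changes was not tested. Same-numbered libraries had correlations of -0.42 to 0.10, and differently numbered ones of -0.39 to 0.50, so no pairing by number was seen. With 4 libraries per group this check cannot exclude shared handling by number. Slc25a43, with 0 to 18 counts in a library, is limited by depth.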
